A study of Rattus norvegicus with 63 samples.

Results

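The 10 genes that type I interferons switch on, Usp18, Irf7, Oas1a, Rsad2, Mx1, Mx2, Slfn4, Slfn5, Lgals3bp and Znfx1, were followed through the livers of rats given 1 of 15 compounds. The 10 members were chosen by name, after their responses in these arrays were known, from the 10411 genes that the array annotation names with a single symbol, and all 10 were measured. Where a member had more than 1 probe set, the one with the higher mean level across the 63 arrays stood for it. The contrasts of each compound with its own vehicle animals took part in that choice, so the members' differences in them are given as a description and support nothing further.

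The animals were male Wistar Hanover rats aged 8 to 10 weeks that were dosed daily by gavage, with 3 arrays per group and 1 animal per array, giving 45 treated and 18 vehicle animals. The 3 animals of a group were picked from 5 dosed animals on the basis of histopathology, so that the replicates were separate animals but no random draw. Every compound was compared with the 3 vehicle animals of its own control set, and there were 6 such sets. With set 1, which received methylcellulose for 14 days, were compared Acetamide (AA, 3000 mg/kg/day, 14 days), Methylcarbamate (Mcarb, 400 mg/kg/day, 14 days), Dehydroepiandrosterone (DHEA, 600 mg/kg/day, 14 days), Methapyrilene HCl (MPy, 60 mg/kg/day, 7 days), Thioacetamid (TAA, 19.2 mg/kg/day, 7 days) and Wy-14643 (Wy, 60 mg/kg/day, 3 days). With set 2, methylcellulose for 14 days, were compared Cefuroxime (CFX, 250 mg/kg/day, 14 days) and Nifedipine (Nif, 3 mg/kg/day, 14 days). With set 3, corn oil for 7 days, were compared C.I Direct Black (CIDB, 146 mg/kg/day, 7 days) and Dimethylnitrosamine (DMN, 4 mg/kg/day, 7 days). With set 4, corn oil for 14 days, was compared Cyproterone acetate (CPA, 100 mg/kg/day, 14 days). With set 5, methylcellulose for 14 days, were compared Ethionine (ETH, 200 mg/kg/day, 14 days), Diethylstilbestrol (DES, 10 mg/kg/day, 3 days) and Piperonylbutoxide (PBO, 1200 mg/kg/day, 3 days). With set 6, methylcellulose for 14 days, was compared Phenobarbital sodium (PB, 14 days, dose not given in the labels). By these labels the controls of DES, PBO, Wy, MPy and TAA were dosed for longer than the treated animals, whereas the study's methods describe controls matched in time. If the labels hold, length of dosing and compound cannot be told apart there. Compounds of 1 control set share its 3 animals, so their differences are not independent of each other.

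Type I interferons are secreted by cells that sense viral or misplaced nucleic acid, and they act on the same and on neighbouring cells. Their receptor activates Janus kinases, which phosphorylate STAT proteins, and a complex that holds Stat2 and Irf9 binds interferon-stimulated response elements (ISREs) in promoters. The genes under those elements restrict viral replication, feed the response forward or shut it off, and hepatocytes and the resident macrophages of the liver, the Kupffer cells, are both able to respond. Interferon gamma uses another receptor and acts through gamma-activated sites (GAS), and is known above all for antigen presentation.

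The promoters of the members are shown to place the response element that defines the family beside the expression values. RefSeq promoter windows of the GRCr8 build, 250 bases before to 50 bases after the annotated start and written 5′ to 3′ on the strand of the gene, were at hand for 8 of the 10 members, whereas Usp18 and Mx2 had no entry. Capitals mark matches to the ISRE core GAAANNGAAA on either strand. The windows of Irf7, Oas1a, Rsad2 and Lgals3bp are those with a match upstream of the start, and that of Mx1 is a window without one.
Irf7, chr1:205799974-205800273, minus strand: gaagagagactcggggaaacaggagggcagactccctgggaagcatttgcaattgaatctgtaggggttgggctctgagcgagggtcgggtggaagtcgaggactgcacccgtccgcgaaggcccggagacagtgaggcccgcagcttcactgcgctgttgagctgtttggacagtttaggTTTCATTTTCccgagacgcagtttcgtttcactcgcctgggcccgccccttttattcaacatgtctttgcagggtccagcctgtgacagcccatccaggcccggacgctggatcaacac
Oas1a, chr12:41330216-41330515, plus strand: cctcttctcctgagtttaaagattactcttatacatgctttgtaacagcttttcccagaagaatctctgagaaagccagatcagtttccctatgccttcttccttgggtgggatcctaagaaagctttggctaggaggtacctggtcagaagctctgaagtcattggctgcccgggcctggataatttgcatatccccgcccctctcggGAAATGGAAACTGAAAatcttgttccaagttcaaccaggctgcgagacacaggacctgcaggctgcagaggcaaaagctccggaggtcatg
Rsad2, chr6:48788071-48788370, minus strand: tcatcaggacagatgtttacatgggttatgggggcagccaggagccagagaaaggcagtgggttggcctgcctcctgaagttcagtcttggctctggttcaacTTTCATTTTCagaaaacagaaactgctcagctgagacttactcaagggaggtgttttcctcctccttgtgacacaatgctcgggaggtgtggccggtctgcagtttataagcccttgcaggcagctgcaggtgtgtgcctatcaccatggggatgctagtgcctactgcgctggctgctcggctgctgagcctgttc
Lgals3bp, chr10:104127799-104128098, minus strand: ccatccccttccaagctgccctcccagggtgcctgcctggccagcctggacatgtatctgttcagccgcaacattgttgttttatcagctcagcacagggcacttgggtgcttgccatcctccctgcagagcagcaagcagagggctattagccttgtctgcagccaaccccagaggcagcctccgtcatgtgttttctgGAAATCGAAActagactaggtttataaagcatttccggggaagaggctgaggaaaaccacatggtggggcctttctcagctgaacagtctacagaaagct
Mx1, chr11:50294557-50294856, minus strand: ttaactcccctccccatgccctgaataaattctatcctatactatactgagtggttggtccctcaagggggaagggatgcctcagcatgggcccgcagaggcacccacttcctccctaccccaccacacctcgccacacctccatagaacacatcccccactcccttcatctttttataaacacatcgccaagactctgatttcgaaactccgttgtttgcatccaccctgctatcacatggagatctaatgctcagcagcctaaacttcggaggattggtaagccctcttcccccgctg
The ISRE core was found in 5 of the 8 members with a window, and in 1131 (4.12%) of the 27457 genes that have one in the table. Counted from the annotated start, the match began at base −69 in Irf7, −50 in Lgals3bp and −147 in Rsad2. In Oas1a a pair of overlapping matches began at bases −41 and −35. The match of Slfn5 began at base 4, in the second of its 2 windows. No match to these letters lay in the windows of Mx1, Slfn4 and Znfx1. The GAS core TTCNNNGAA was found in 1 of the 8, Oas1a, and in 9.39% of all genes with a window. Among the 26 further interferon-stimulated genes of the array that had a window, 14 (53.85%) held the ISRE core, and among 20 genes of the interferon gamma and antigen presentation list 9 (45.0%) did. A match is a description of the letters and not of binding.

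The values are log2 expression levels, so that a difference of 1 is a doubling, and they are comparable between arrays within a probe set but not between probe sets. As a check of the tissue label, the 9 measured hepatocyte markers, among them albumin (Alb) and transthyretin (Ttr), had mean levels of 12.98 to 15.02 on a scale that ran from 3.96 to 15.11 over all arrays. In an excised liver, a change in the number of cells that express a gene and a change in RNA per cell cannot be told apart.

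The mean level of the members was high in the 9 animals given AA, Mcarb or ETH and in no animal of another group, although not every member followed it. The mean log2 level over the 10 genes ran from 8.39 to 9.64 in those 9 animals, with a median of 9.15. In the 18 vehicle animals it ran from 7.07 to 7.79 with a median of 7.45, and in the 36 animals of the other 12 compounds from 6.95 to 7.80 with a median of 7.28. AA and Mcarb were both compared with the 3 animals of set 1, and ETH with those of set 5. The number of members called at a Benjamini-Hochberg adjusted p under 0.05 by limma, over 15866 probe sets, was 6 of 10 for AA, 10 of 10 for Mcarb and 9 of 10 for ETH, all of them higher. The share of all probe sets called in either direction was 4.66% for AA, 1.07% for Mcarb and 23.5% for ETH. The median difference of the members was 1.23 for AA, 1.79 for Mcarb and 1.46 for ETH, beside medians over all probe sets of 0.02, 0.01 and −0.03.

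**Figure D1:**
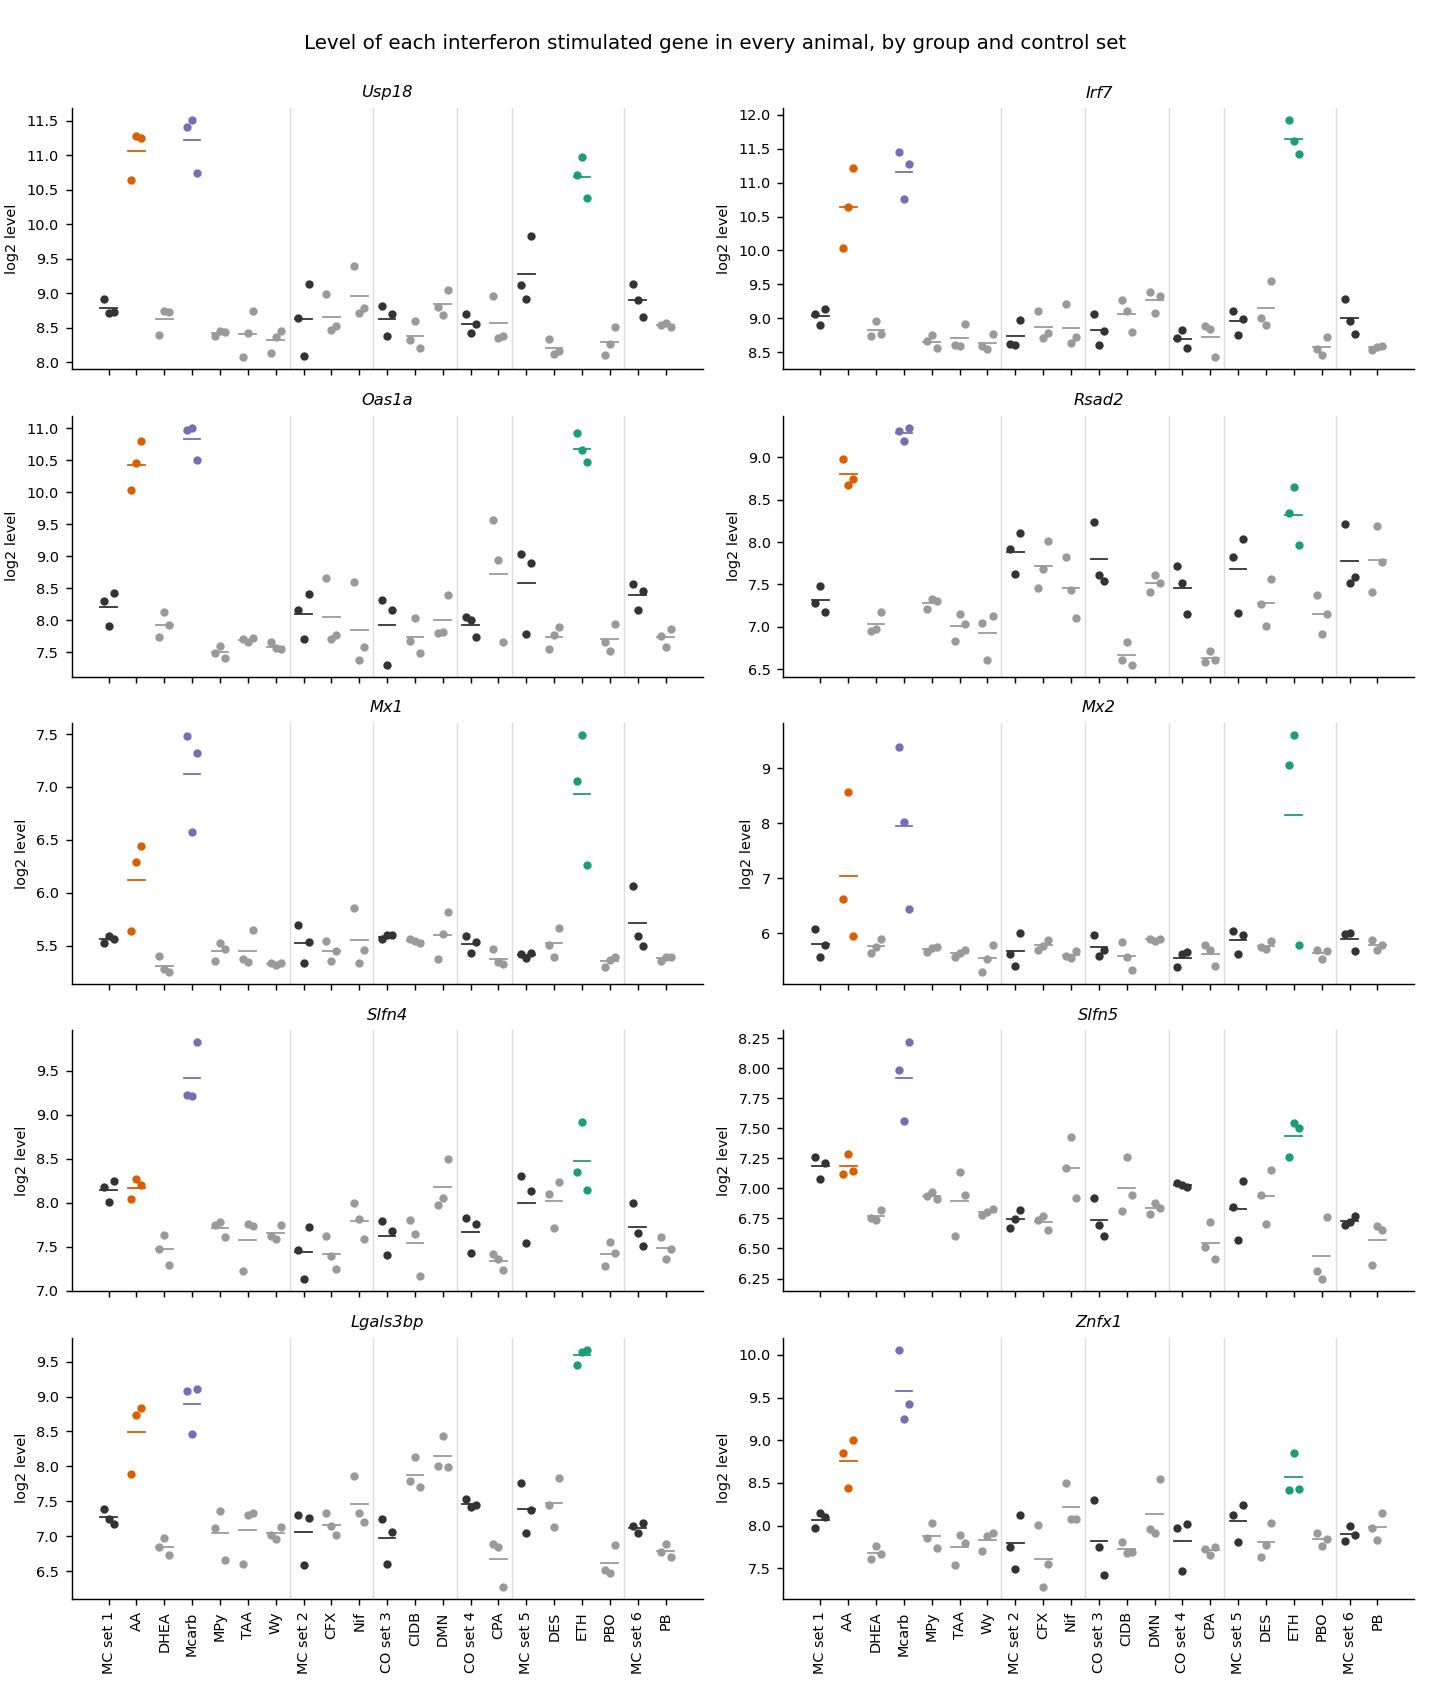
Log2 level (vertical axis) of each of the 10 genes in every animal, with 1 point per animal and a bar at the group mean, groups ordered by control set along the horizontal axis and vertical lines between sets. Black points are vehicle animals (MC, methylcellulose; CO, corn oil) and coloured points are AA, Mcarb and ETH, whose 9 animals held members' mean levels of 8.39 to 9.64 against 7.07 to 7.79 in the 18 vehicle animals.

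Among the regulators of the response, Usp18 encodes a protease that removes the ubiquitin-like modifier Isg15 from proteins and dampens signalling at the interferon receptor. Its levels in the animals given Mcarb were 11.41, 11.51 and 10.74, in those given AA 10.64, 11.28 and 11.25, and in those given ETH 10.71, 10.98 and 10.38. The vehicle animals were at 8.92, 8.72 and 8.73 in set 1 and at 9.12, 8.91 and 9.83 in set 5. All 9 animals lay above the highest of the 18 vehicle animals, which was set 5 replicate 9, and above the highest of the 36 others at 9.40. The difference was 2.43 ± 0.22 (SE, 3 against 3 animals; 5.39-fold) for Mcarb, 2.27 ± 0.22 (4.82-fold) for AA and 1.40 ± 0.22 (2.65-fold) for ETH. The group means of Mcarb, AA and ETH, in that order, overlapped in their animals, and ETH was clear of the next group, the vehicle animals of set 5.

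Irf7 is the transcription factor that amplifies production of type I interferons once the first wave has been sensed. Its levels were 11.92, 11.61 and 11.42 with ETH, 11.46, 10.76 and 11.27 with Mcarb, and 10.04, 10.65 and 11.22 with AA. Set 5 stood at 9.11, 8.76 and 8.98 and set 1 at 9.06, 8.89 and 9.13, so that no treated animal of the 3 groups overlapped with its controls. The difference was 2.70 ± 0.19 (6.49-fold) for ETH, the largest difference of any member under any of the 15 compounds, 2.13 ± 0.19 (4.38-fold) for Mcarb and 1.61 ± 0.19 (3.04-fold) for AA. The order of the means was ETH, Mcarb, AA, with neighbours overlapping, and the next group down was DMN at 9.26 ± 0.17 (SD, n = 3).

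Of the antiviral effectors, Oas1a belongs to the oligoadenylate synthetases, which sense double-stranded RNA and make the messenger that activates RNase L. It reached 10.98, 11.01 and 10.50 with Mcarb, 10.92, 10.65 and 10.47 with ETH, and 10.03, 10.46 and 10.80 with AA. Set 1 was at 8.31, 7.91 and 8.42 and set 5 at 9.04, 7.78 and 8.90, the latter with 1 animal well below its 2 companions. The differences were 2.62 ± 0.31 (6.13-fold) for Mcarb, 2.22 ± 0.31 (4.65-fold) for AA and 2.11 ± 0.31 (4.30-fold) for ETH. Outside these groups the gene was highest in CPA, where 1 animal at 9.57 lay above every vehicle animal while another stood at 7.66.

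Rsad2 encodes viperin, an enzyme that makes a chain-terminating nucleotide. It stood at 9.30, 9.19 and 9.35 with Mcarb, at 8.98, 8.67 and 8.74 with AA, and at 8.35, 8.65 and 7.97 with ETH. Set 1 was at 7.28, 7.49 and 7.18 and set 5 at 7.83, 7.17 and 8.04, so that the third ETH animal lay within its own controls. The differences were 1.97 ± 0.21 (3.91-fold), 1.49 ± 0.21 (2.80-fold) and 0.64 ± 0.21 (1.56-fold). Rsad2 also reached low levels elsewhere, and 17 of the 36 animals of the other compounds lay below the lowest of the 18 vehicle animals at 7.15, among them all 3 of CPA (mean 6.64 ± 0.07) and all 3 of CIDB (mean 6.66 ± 0.14).

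Mx1 and Mx2 encode dynamin-like GTPases that trap viral components. Mx1 was at 7.48, 6.57 and 7.32 with Mcarb, at 7.06, 7.49 and 6.26 with ETH and at 5.64, 6.29 and 6.44 with AA, against 5.53, 5.59 and 5.56 in set 1 and 5.42, 5.39 and 5.43 in set 5. Its difference was 1.57 ± 0.18 (2.96-fold) for Mcarb, 1.52 ± 0.18 (2.88-fold) for ETH and 0.57 ± 0.18 (1.48-fold, adjusted p = 0.0616) for AA, where 1 of the 3 animals lay among the vehicle animals. Mx2 varied most between animals of 1 group, with a pooled within-group SD of 0.65. It was at 9.39, 8.02 and 6.45 with Mcarb, at 9.07, 9.61 and 5.79 with ETH and at 6.62, 8.57 and 5.95 with AA, while no vehicle animal exceeded 6.07. The differences were 2.14 ± 0.50, 2.28 ± 0.50 and 1.24 ± 0.50 (adjusted p = 0.147).

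Mx2 has a second probe set on the array, and the pair disagreed within single animals. Each was read against its own vehicle animals, whose highest levels were 6.07 in the first and 5.91 in the second. In the ETH animals the second stood at 5.36, 9.45 and 9.63, so that replicate 1 was above the vehicle animals in the first probe set alone and replicate 3 in the second alone. In the AA animals it stood at 7.02, 8.55 and 8.53, where replicate 3 was above them in the second alone, and in the Mcarb animals at 9.41, 6.52 and 6.47. Each of the 9 animals was above the highest vehicle animal in 1 or both of the probe sets. So were CPA replicate 2 and PB replicate 3, by a small margin in the second alone, at 6.05 and 6.09. The cause of the disagreement was not tested. Slfn4 also has a second probe set, which stayed between 5.20 and 5.64 in the same 9 animals. The 18 vehicle animals ran from 5.30 to 5.82 in it, so that none of the 9 lay above them. The Slfn4 differences given below thus rest on the other probe set alone.

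**Figure D2:**
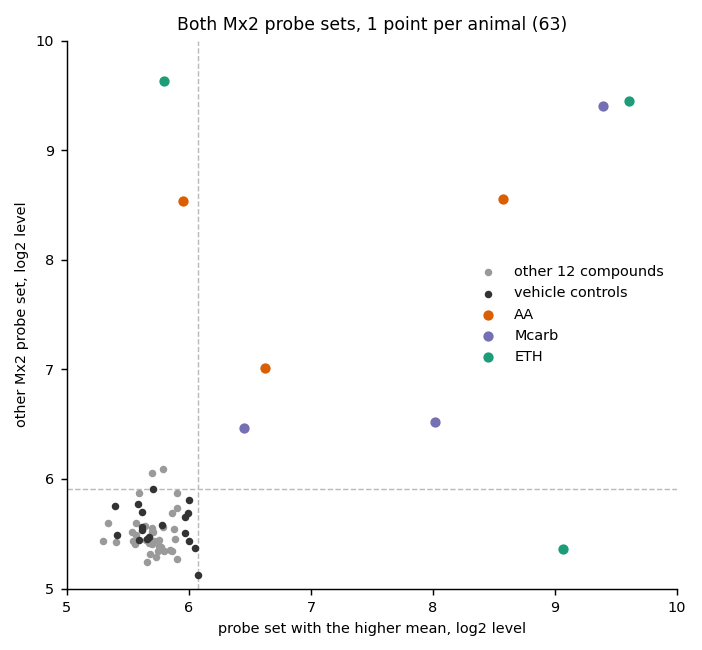
Log2 level of the 2 Mx2 probe sets against each other, with 1 point per animal for all 63 animals and dashed lines at the highest vehicle animal of each probe set (6.07 and 5.91). The vehicle animals and those of the other 12 compounds gather near the lower left corner, whereas ETH replicate 1 lies at 9.07 and 5.36 and ETH replicate 3 at 5.79 and 9.63.

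The Schlafen genes Slfn4 and Slfn5, which are expressed in myeloid and other cells and restrict proliferation or viral RNA use, had their highest group means with Mcarb. Slfn4 was at 9.23, 9.21 and 9.83 with Mcarb, above every other animal, and at 8.35, 8.92 and 8.14 with ETH. With AA it was at 8.04, 8.27 and 8.20, among the 8.18, 8.01 and 8.24 of set 1. The differences were 1.28 ± 0.19 (2.42-fold) for Mcarb, 0.48 ± 0.19 for ETH (adjusted p = 0.0599) and 0.02 ± 0.19 for AA. Slfn5 was at 7.99, 7.56 and 8.22 with Mcarb, at 7.26, 7.55 and 7.50 with ETH and at 7.12, 7.29 and 7.15 with AA, against 7.26, 7.08 and 7.21 in set 1 and 6.84, 6.57 and 7.06 in set 5. Its differences were 0.74 ± 0.14, 0.61 ± 0.14 and 0.00 ± 0.14. Set 1, the baseline of AA and Mcarb, had the highest mean of the vehicle sets in both Schlafen genes.

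Lgals3bp encodes a secreted glycoprotein that binds galectins, and Znfx1 an RNA helicase that senses viral RNA at mitochondria. Lgals3bp was at 9.45, 9.64 and 9.67 with ETH, above every other animal, at 9.08, 8.47 and 9.11 with Mcarb and at 7.89, 8.74 and 8.84 with AA. The controls stood at 7.76, 7.04 and 7.38 in set 5 and at 7.39, 7.24 and 7.17 in set 1. It was called under more compounds than any other member, and it was also at 8.01, 8.43 and 7.99 with DMN against 7.25, 6.60 and 7.05 in set 3. Its differences were 2.19 ± 0.22 (4.58-fold) for ETH, 1.62 ± 0.22 (3.07-fold) for Mcarb, 1.22 ± 0.22 (2.33-fold) for AA and 1.17 ± 0.22 (2.25-fold) for DMN. Znfx1 was at 10.06, 9.25 and 9.42 with Mcarb, at 8.85, 8.43 and 8.998 with AA and at 8.42, 8.85 and 8.43 with ETH, with set 1 at 7.97, 8.15 and 8.09 and set 5 at 8.12, 7.81 and 8.24. Its differences were 1.51 ± 0.19 (2.85-fold), 0.69 ± 0.19 (1.62-fold) and 0.51 ± 0.19 (1.42-fold).

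Some of these calls depended on single arrays. Without AA replicate 1 or 3, or without set 1 replicate 4 or 6, Znfx1 was not called for AA, its difference lying between 0.57 and 0.86 over all settings tried. For ETH, Rsad2 was not called without ETH replicate 2 or set 5 replicate 8 (difference 0.39 to 0.82 over settings), nor was Znfx1 without either of these or set 5 replicate 7 (0.36 to 0.61). For Mcarb, Mx2 was not called without Mcarb replicate 1 or set 1 replicate 5 or 6 (1.42 to 2.90), nor Slfn5 without Mcarb replicate 3 (0.59 to 1.05).

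**Figure D3:**
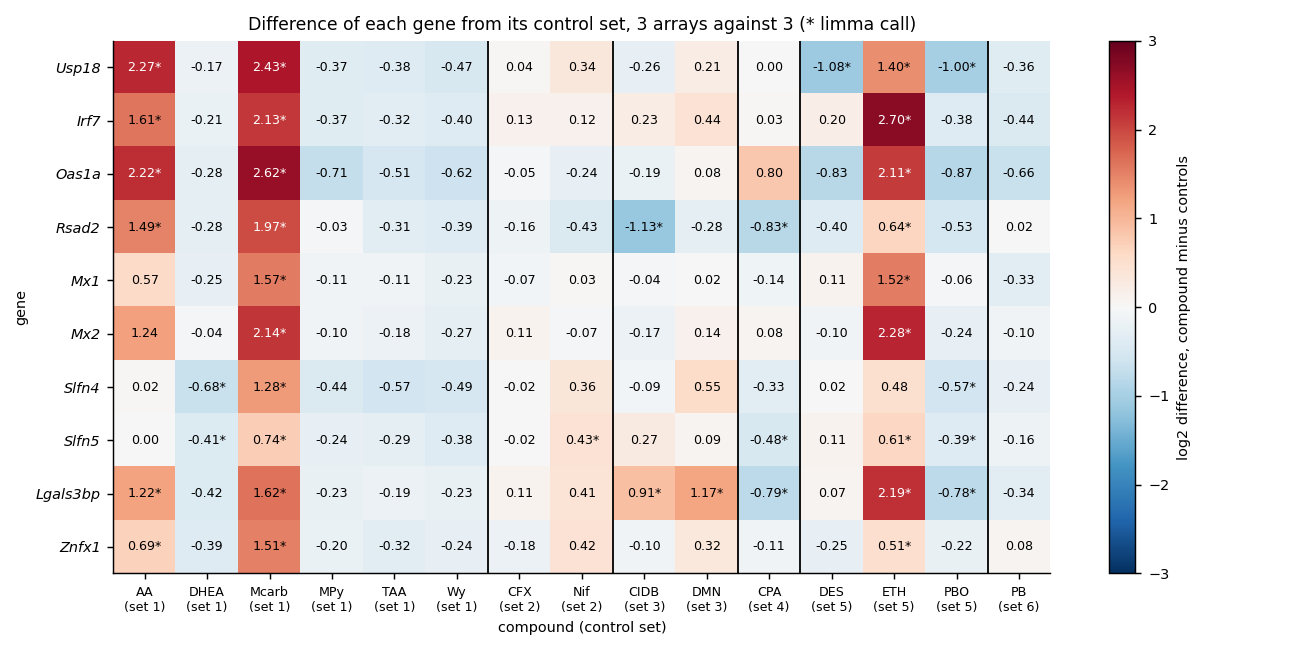
Difference in log2 level between each compound and its control set (3 animals against 3) for the 10 genes, as numbers and colours, with black lines between control sets and an asterisk at a limma adjusted p under 0.05. Asterisks stand at 6 of 10 genes for AA, 10 of 10 for Mcarb and 9 of 10 for ETH, all above 0, and the largest entry is 2.70 for Irf7 with ETH.

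AA and Mcarb shared set 1 and were both given for 14 days, at 3000 and 400 mg/kg/day, so that their levels can be put side by side but not at a matched dose. All 10 members had the higher mean in Mcarb. The gap between Mcarb and AA was 1.25 ± 0.19 for Slfn4, 1.00 ± 0.18 for Mx1, 0.82 ± 0.19 for Znfx1 and 0.73 ± 0.14 for Slfn5, the 4 members called in this contrast (5.17% of all probe sets). Both compounds' own contrasts took part in the choice of the members, so that this too is a description. It was 0.91 ± 0.50 for Mx2 and at most 0.53 for the other 5, with 0.16 ± 0.22 for Usp18. The 2 groups overlapped in Usp18, Irf7, Oas1a, Mx2 and Lgals3bp.

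Within groups, the members varied together from animal to animal. After the group mean was taken away, 44 of the 45 pairs of members were positively correlated over the 63 animals, with a median Pearson r of 0.43 and a range of −0.01 to 0.67, beside a median of −0.0007 over all pairs of genes. The highest was Usp18 with Oas1a, and the lowest were pairs with Mx2, whose median r with the others was 0.20. Both genes of a pair come from the same array, so that these values are a description with no test. In some vehicle sets 1 animal was the lowest or the highest of the 3 in most members. In set 5, replicate 8 was the lowest of the 3 in all 10 members, and in set 2 replicate 11 was the lowest in 9 of 10. In set 3, replicate 4 was the highest in 9 of 10. The ranks were mixed in set 1, where replicate 5 was the lowest in 6 and the highest in 3. They were mixed too in set 6, where replicate 1 was the highest in 6 and the lowest in 2. ETH replicate 3 was the lowest in 7 of 10 of its group, as were AA replicate 1 and Mcarb replicate 2. The within-group SD of the members ran from 0.17 for Slfn5 to 0.65 for Mx2, and that of Slfn5 was larger than the SD of 84.75% of the genes on the array.

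Vehicle sets were compared with each other within a vehicle. These contrasts were not themselves part of the choice of the members, although the same animals were its baselines, and set 1, the baseline of AA and Mcarb, was not tested against another set. No member was called between methylcellulose sets 2 and 5 (0 of 10, 2 at an unadjusted p under 0.05, beside 2.72% of all probe sets called), sets 2 and 6 (0 of 10, 0 unadjusted, 1.95%) or sets 5 and 6 (0 of 10, 0 unadjusted, 10.2%). Between corn oil sets 3 and 4, dosed for 7 and 14 days, 0 of 10 were called as well (2 unadjusted, 0.466%). For sets 2 and 5, 1 member was called once set 5 replicate 8 or set 2 replicate 12 was left out.

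With the other 12 compounds few members were called, and the median difference of the members lay between −0.46 with PBO and 0.23 with Nif. DMN had 1 call, higher, in Lgals3bp (3.23% of all probe sets called), and its median difference over the members was 0.18. CIDB had 1 higher, Lgals3bp by 0.91 ± 0.22, and 1 lower, Rsad2 by −1.13 ± 0.21 (13.9%). Nif had 1 higher, Slfn5 by 0.43 ± 0.14 (8.46%), a call that was lost without any 1 of its 6 arrays except Nif replicate 3. CPA had 3 lower, Rsad2 by −0.83 ± 0.21, Lgals3bp by −0.79 ± 0.22 and Slfn5 by −0.48 ± 0.14 (7.85%), of which 0 were left without set 4 replicate 1. PBO had 4 lower, of which Usp18 was lower by −0.997 ± 0.22 and Lgals3bp by −0.78 ± 0.22 (14.5%). Its count was 1 without PBO replicate 1 or set 5 replicate 7, 2 without PBO replicate 2 or set 5 replicate 9, and 6 without set 5 replicate 8. DES had 1 lower, Usp18 by −1.08 ± 0.22 (15.5%), and 3 without set 5 replicate 8. DHEA had 2 lower, Slfn4 by −0.68 ± 0.19 and Slfn5 by −0.41 ± 0.14 (17.7%). In both genes set 1 had the highest mean of the 6 vehicle sets, 8.15 and 7.18. The other methylcellulose sets had means of 7.44 to 7.99 and 6.73 to 6.83, and DHEA, at 7.47 and 6.77, lay within these ranges. The DHEA count was 0 without DHEA replicate 3 and 1 without DHEA replicate 1 or 2 or set 1 replicate 4 or 6.

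No member was called by limma with CFX (0 at an unadjusted p under 0.05, 0.0063% of all probe sets called), MPy (2 unadjusted, 6.32%), PB (2 unadjusted, 1.35%), TAA (2 unadjusted, 6.4%) or Wy (4 unadjusted, 12.9%). The median difference was −0.23 for MPy, −0.29 for PB, −0.32 for TAA and −0.38 for Wy, and all 10 members had a difference below 0 with MPy, TAA and Wy, as they had with DHEA and PBO. MPy, TAA, Wy and DHEA share the animals of set 1, so that these are not separate observations.

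Further genes of the pathway, from lists that hold no member, were counted in the same fit. Of the ligands the array measured Ifnb1 and Ifng, and neither was called by limma with AA (1 at an unadjusted p under 0.05), Mcarb (0 unadjusted), ETH (0 unadjusted) or DMN (0 unadjusted). Ifnb1, encoding interferon beta, differed by −0.21 ± 0.10 with AA, −0.20 ± 0.10 with Mcarb and 0.08 ± 0.10 with ETH. Of 6 receptor chains and Janus kinases, Tyk2, a kinase of the type I receptor, fell by 0.41 ± 0.08 with ETH (adjusted p = 6e-05), and none was called with AA (0 unadjusted) or Mcarb (2 unadjusted). Of 8 nucleic acid sensors and adaptors, 2 fell with ETH, Myd88 by 0.63 ± 0.11 and Mavs by 0.47 ± 0.12, both adaptors that carry sensor signals, and none was called with AA or Mcarb (1 unadjusted in each). With ETH 23.5% of all probe sets were called, so that 1 of 6 and 2 of 8 were below or near the share over the array.

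Of the 6 measured transcription factors of the pathway, 3 rose with Mcarb. The share of all probe sets called was 1.07% with Mcarb, 4.66% with AA and 23.5% with ETH. Irf9 was higher by 0.72 ± 0.18 (adjusted p = 0.0356), Irf1, an interferon-induced activator, by 0.67 ± 0.18 (adjusted p = 0.0499) and Stat2 by 0.45 ± 0.11 (adjusted p = 0.0294). With AA none was called higher, and Irf3, which is activated by sensors, fell by 0.62 ± 0.10 (2 of the 6 at an unadjusted p under 0.05). Against the same set 1, Irf3 also fell with TAA by 0.63 ± 0.10, with DHEA by 0.52 ± 0.10 and with MPy by 0.42 ± 0.10. It was not called with Mcarb or Wy. Its mean was 9.32 in set 1, and 8.83, 9.03 and 8.75 in methylcellulose sets 2, 5 and 6. With ETH none of the 6 was called (0 at an unadjusted p under 0.05). In the direct contrast of Mcarb with AA, Irf1 (0.71 ± 0.18), Irf8 (0.70 ± 0.21), Stat2 (0.51 ± 0.11) and Irf3 (0.50 ± 0.10) were higher in Mcarb. Of all probe sets 5.17% were called there. Irf9 was not called there (0.29 ± 0.18), and with AA it differed from set 1 by 0.42 ± 0.18 (limma adjusted p = 0.181). Of 5 negative regulators, Ptpn2 and Ptpn11, phosphatases that act on STAT and receptor signalling, rose with ETH by 0.39 ± 0.13 and 0.34 ± 0.11, and Socs3, a feedback inhibitor, fell by 0.27 ± 0.07. None of the 5 was called with AA or Mcarb (2 unadjusted in each).

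Interferon-stimulated genes outside the members rose with AA, Mcarb and ETH, and with DMN. Of 32 measured, 8 rose with AA, 15 with Mcarb, 16 with ETH and 5 with DMN, and none fell. The shares of all probe sets called were 4.66%, 1.07%, 23.5% and 3.23%. The medians over the list were 0.25, 0.47, 0.31 and 0.25, and those of AA and DMN thus lay close together, with 28 of 32 differences above 0 in each and 15 and 17 at an unadjusted p under 0.05. With AA the largest were Ifit1, which binds viral RNA, by 1.10 ± 0.22 (adjusted p = 0.00129), Lgals9 by 0.87 ± 0.17, the Isg15-conjugating enzyme Ube2l6 by 0.83 ± 0.17 and Oasl by 0.65 ± 0.13. With Mcarb they were the chemokine Cxcl10 by 1.39 ± 0.17, Ly6e by 1.17 ± 0.23, Ifi27l2b by 1.09 ± 0.23 and Ifit3 by 1.08 ± 0.08 (adjusted p = 1.38e-12). With ETH they were the scramblase Plscr1 by 1.81 ± 0.18 (adjusted p = 6.13e-11), Ly6e by 1.56 ± 0.23, Oasl by 1.24 ± 0.13 and Ifit1 by 1.00 ± 0.22. The compounds did not raise the list evenly. Plscr1 differed by 0.20 ± 0.18 with Mcarb and 0.32 ± 0.18 with AA, neither called, and Ifit1 by 0.34 ± 0.22 with Mcarb, and the Mcarb level minus the AA level was −0.76 ± 0.22 (adjusted p = 0.0324). The Mcarb count of 15 was 7 when only the 6 arrays of that comparison were fitted.

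In the direct contrast of Mcarb with AA, 5.17% of all probe sets were called. It called 16 of the 82 pathway genes outside the members, 15 higher in Mcarb and Ifit1 lower. That count was 6 without AA replicate 1 or Mcarb replicate 3, 10 without AA replicate 2 and 8 without AA replicate 3. It was 1 when only the 6 arrays of the contrast were fitted.

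With several other compounds more genes of this list fell than rose. Of 32 genes, 10 fell and 1 rose with Wy (12.9% of all probe sets called), 7 fell and 1 rose with DHEA (17.7%), 6 fell and 4 rose with DES (15.5%), 5 fell and 3 rose with PBO (14.5%), 3 fell and 1 rose with MPy (6.32%) and 3 fell with CPA (7.85%). The medians were small, −0.16 with PBO, −0.13 with MPy, −0.13 with Wy, −0.13 with TAA and −0.12 with DHEA. Ifitm1, a membrane protein that blocks viral entry, fell by 0.83 ± 0.26 with Wy and by 0.97 ± 0.26 with DHEA, and Ifitm3 fell by 1.30 ± 0.32 with DHEA. Dtx3l and Parp9, which form a complex, fell with Wy by 0.87 ± 0.20 and 0.85 ± 0.22, while Tor3a rose by 0.93 ± 0.19 with Wy and 0.85 ± 0.19 with DHEA. The Wy count of 11 was 5 without set 1 replicate 5 and 7 without set 1 replicate 4 or 6 or Wy replicate 2 or 3, and the DHEA count of 8 was 3 without DHEA replicate 3. The MPy count in either direction was 2 whichever 1 array was left out. The CPA count of 3 of 32 was near the share over all probe sets and was 0 without set 4 replicate 1. Wy and DHEA share the animals of set 1 and differ in days of dosing. Markers of several cell types fell beside these genes. Of the macrophage and Kupffer cell markers 5 of 12 fell with Wy and 8 of 12 with DHEA, of the hepatocyte markers 6 of 9 and 5 of 9, and of the endothelial markers 3 of 5 with each, and their part was not tested.

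DMN raised the interferon gamma and antigen presentation list more than the members, which were chosen with these contrasts known. The 32 other interferon-stimulated genes had a median difference of 0.25 with both AA and DMN. Of 23 measured genes of the interferon gamma and antigen presentation list, 17 rose and 0 fell with DMN (median 0.88), among them RT1-Bb by 3.05 ± 0.57, Gbp2 by 2.47 ± 0.17, the chemokine Cxcl9 by 2.02 ± 0.25 and the immunoproteasome subunit Psmb10 by 1.77 ± 0.18. The transcription factor Irf1 rose by 1.05 ± 0.18 with it (adjusted p = 0.000133). With AA 1 of 23 rose (Tapbp by 0.40 ± 0.08), with Mcarb 1 (Tap1 by 0.58 ± 0.14) and with ETH 9, led by Psmb9 at 1.10 ± 0.27. Over all probe sets 3.23% were called with DMN, 4.66% with AA, 1.07% with Mcarb and 23.5% with ETH. The counts for Mcarb ranged from 0 to 4 on leaving out 1 array, with 4 without Mcarb replicate 1, 2 without Mcarb replicate 2 and 0 without Mcarb replicate 3 or set 1 replicate 4 or 6. The count for AA was 2 without AA replicate 1 and that for ETH was 5 without set 5 replicate 8. Of the 32 other interferon-stimulated genes DMN raised 5, with Cxcl10 at 0.89 ± 0.17 and Ly6e at 0.87 ± 0.23 the highest. That count was 2 without set 3 replicate 5 or DMN replicate 3 and 3 without set 3 replicate 6, and it was 19 when arrays were weighted by their quality.

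**Figure D4:**
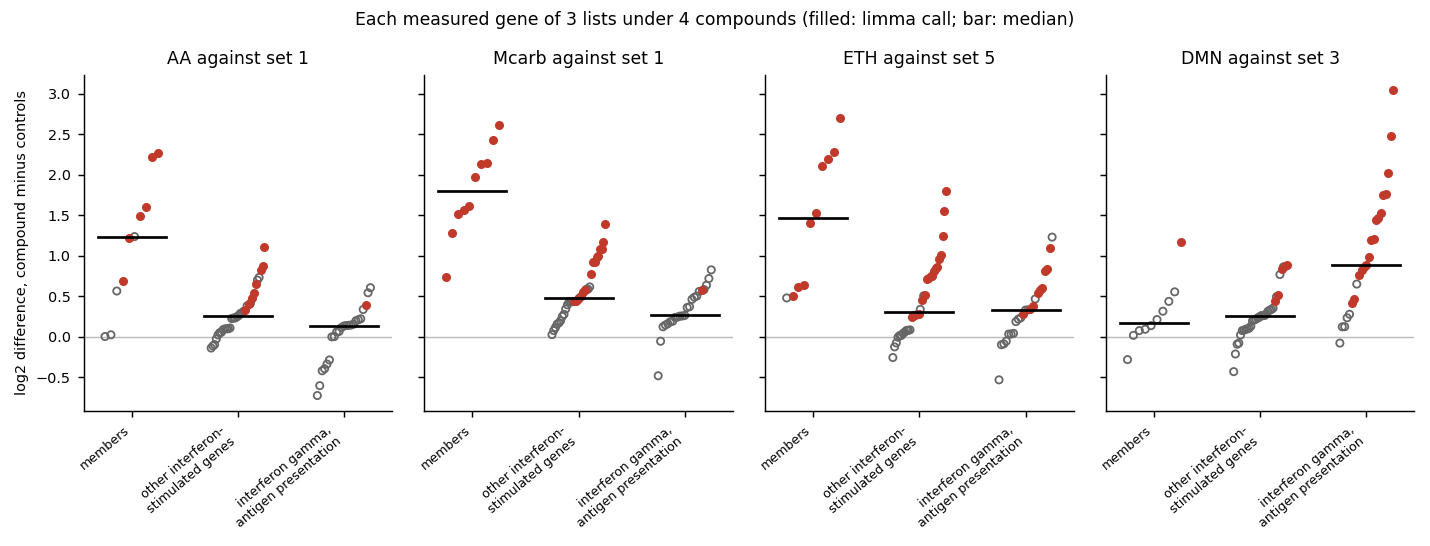
Difference in log2 level (vertical axis) of each measured gene of 3 lists under AA, Mcarb, ETH and DMN, with filled points for limma calls, open points for genes not called and a bar at the median of the list. The members, which were chosen with these contrasts known, had medians of 1.23, 1.79, 1.46 and 0.18. The medians of the 32 other interferon-stimulated genes were 0.25, 0.47, 0.31 and 0.25. Those of the 23 interferon gamma and antigen presentation genes were 0.13, 0.26, 0.33 and 0.88.

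The differences between these responses were estimated in the same fit, as the change with AA, Mcarb or ETH minus the change with DMN. The lists were chosen with earlier results of these data known, and DMN is the compound with the largest median rise of the interferon gamma list. A smaller change of that list with the other compounds was thus likely from the outset, and the counts are a description. DMN was given for 7 days and compared with corn oil animals. AA, Mcarb and ETH were given for 14 days and compared with methylcellulose animals. Compound, vehicle and length of dosing therefore cannot be told apart in these contrasts. Of the 23 interferon gamma and antigen presentation genes, 14 had a lower change with AA than with DMN, 6 with Mcarb and 6 with ETH, and 0 a higher one, where 4.35%, 0.454% and 10.9% of all probe sets were called. Gbp2 differed by −2.41 ± 0.24 for AA, −2.23 ± 0.24 for Mcarb and −1.66 ± 0.24 for ETH. Of the 32 other interferon-stimulated genes, 1 had a higher change with AA than with DMN (Ifit1 by 1.20 ± 0.31), 3 with Mcarb (Ifit3 by 0.98 ± 0.12, Oasl by 0.84 ± 0.18 and Oas1b by 0.49 ± 0.11) and 5 with ETH, where Cxcl10 had a lower one by −0.83 ± 0.24. Likewise as a description, 4, 6 and 7 of the 10 members were called higher in these contrasts, and Usp18, Irf7, Oas1a and Rsad2 were called in all of them. The Mcarb count of 6 interferon gamma genes was 3 without Mcarb replicate 1, set 1 replicate 5 or set 3 replicate 5, and 14 with array weights. The AA count of 1 other interferon-stimulated gene was 0 without set 3 replicate 6 or DMN replicate 3, 2 without AA replicate 2 or set 3 replicate 5, 3 without set 3 replicate 4 and 9 with array weights. The ETH count of 6 in either direction was 3 without ETH replicate 2, and its 7 members were 4 without ETH replicate 2, set 5 replicate 8, DMN replicate 1 or set 3 replicate 4. The 3 contrasts share the DMN animals and set 3, and those of AA and Mcarb set 1 as well.

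Markers of other cells were read beside these results. Over all probe sets 23.5% were called with ETH, 3.23% with DMN, 1.07% with Mcarb and 4.66% with AA. Of 12 measured macrophage and Kupffer cell markers, 9 rose and 1 fell with ETH, among them Lyz2 by 2.27 ± 0.30 and Clec4f, a Kupffer cell lectin, by 1.22 ± 0.27. With DMN 4 rose and 1 fell, with Mcarb 2 rose, Gpnmb by 1.52 ± 0.32 and Csf1r by 0.72 ± 0.19, and with AA none was called by limma (1 at an unadjusted p under 0.05). The log2 of their summed level was 14.14 to 14.20 with ETH against 12.85 to 13.19 in set 5, and 13.57 to 14.33 with Mcarb and 13.39 to 13.70 with AA against 13.24 to 13.39 in set 1. It was 13.49 to 13.64 with DMN against 12.74 to 13.12 in set 3. Of 13 markers of T and NK cells, 1 was called with ETH, Ccl5 by 0.57 ± 0.18, and none with AA (0 unadjusted), Mcarb (1 unadjusted) or DMN (1 unadjusted). Of 4 neutrophil markers, S100a9 rose by 0.52 ± 0.14 with ETH and S100a8 by 0.35 ± 0.06 with DMN. With ETH the counts of 1 of 13 and 1 of 4 were below and near the share over all probe sets. Of 5 endothelial markers, Lyve1 rose by 0.52 ± 0.19 and Eng fell by 0.48 ± 0.12 with ETH, and Kdr fell by 0.77 ± 0.17 with DMN. With AA and Mcarb limma called no neutrophil marker (0 unadjusted in each) and no endothelial marker (2 unadjusted with AA, 1 with Mcarb). The part of these cells in the results was not tested.

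The genes whose pattern was most like that of the members came largely from the same pathway. Over the 21 group means, the 10 genes outside the members that correlated best with the members' mean profile were Sp110 (r = 0.96), Ifit3 (0.95), Ptpro (0.91), Ly6e (0.91), Oas1b (0.90), Oasl (0.90), Ms4a6bl1 (0.88), Rnf213 (0.87), RT1-T24-3 (0.86) and Ifi27 (0.86). Of these, 7 are on the list of other interferon-stimulated genes, and Ptpro, Ms4a6bl1 and RT1-T24-3 are on none of the lists. Sp110 stood at 8.74 with AA, 9.11 with Mcarb and 9.10 with ETH, and at no more than 8.41 in any other group. Ms4a6bl1 stood at 8.30, 8.78 and 8.96, and at no more than 7.97 elsewhere. Over the 63 deviations from the group means, which do not use the differences between groups, the 10 best were Irf9 (r = 0.75), RT1-S3 (0.73), Lgals9 (0.72), Ly6e (0.72), Apol9a (0.66), LOC100910973 (0.66), Ifi27 (0.64), Ube2l6 (0.63), RT1-T24-3 (0.60) and Ifi27l2b (0.58). Ly6e, Ifi27 and RT1-T24-3 were among the 10 in both. These correlations are a description, and in each the genes share their arrays.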

How the data were processed

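Liver RNA of 63 rats was hybridised to Affymetrix RAE230A arrays. The deposited values are log2 expression levels that the authors obtained from the scanned arrays by robust multi-array averaging (RMA) in the affy package, whose version is not given in the sources used here. They ran from 3.96 to 15.11, with array medians of 7.421 to 7.51. Of the 15866 probe sets, 12783 had 1 gene symbol in the platform annotation, 312 had several and 2771 had none, and several-symbol probe sets were not named. Where several probe sets shared a symbol, the brightest on average stood for the gene. The number of arrays limits the precision. No value column was without a sample (0 unmapped).

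A mean for each group was estimated in 1 limma fit (limma 3.58.1, R 4.3.3) of the 63 arrays (42 residual degrees of freedom, median residual SD 0.117), and the Benjamini-Hochberg adjustment covered every probe set, with calls at an adjusted p under 0.05. Input was read with jsonlite 2.0.0 and the R package data.table (1.17.8), and patterns, promoters and plots were made with Python 3.11.15, numpy 2.4.6, pandas 2.3.3 and matplotlib 3.10.9. The fit was tested on simulated data. The members and lists were chosen with earlier results of these data known, and the contrast of the ETH change with the DMN change was added after the levels of the members had been seen. All members were named, and from each list up to 4 called genes with the largest change per comparison, and Plscr1, Ifit1, Ms4a6bl1, Clec4f and the single genes set beside them were chosen for display after their values were seen. Promoter windows came from RefSeq (GRCr8), with a window for 8 of the 10 members. Alternatives were array weights, an intensity trend, a filter at a mean log2 level of 6, median centring, controls pooled by vehicle, the mean of all probe sets of a gene, separate fits of 6 arrays, a replicate block and leaving out each array. The labels name methylcellulose as the vehicle of sets 1, 2, 5 and 6, and a related cellulose is named in the study's methods for some of these groups.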

Additional observations from a re-analysis of the deposited data

Results flagged for a closer look

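A signal appeared in the second Mx2 probe set, which the reported Mx2 differences did not use, above the level of every vehicle animal. The highest vehicle animal stood at a log2 level of 5.91. The highest AA animal reached 8.55 and 3 AA animals lay above all vehicle animals, the highest ETH animal reached 9.63 with 2 above, and the highest Mcarb animal reached 9.41 with 3 above.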

How the results depend on the processing

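Of the values recomputed under settings other than leaving out an array, 331 stayed near the reported value (a count within 1.5 times it, a median within 0.225, the SD between animals of 1 group) and 45 moved. Settings for the interferon gamma list and for changes against DMN were chosen after seeing the data, and the cause was not tested for any shift. With array weights the members called were 3 for DMN, 1 for MPy, 2 for PBO, 1 for TAA, 2 for Wy and 1 between sets 3 and 4. The other interferon-stimulated genes called were then 16 for CIDB, 5 for CPA, 6 for DES, 19 for DMN, 8 for MPy, 7 for Nif, 7 for TAA, 6 for Mcarb against DMN and 9 for AA against DMN. The interferon gamma genes called were then 2 for AA, 0 for Mcarb and 14 for Mcarb against DMN. With controls pooled by vehicle, members called were 1 for DHEA, 1 for MPy, 0 for Nif (median −0.0143), 1 for TAA and 3 for Wy, and other interferon-stimulated genes 11 for CIDB, 5 for DHEA, 7 for MPy and 3 for TAA. With only the 6 arrays of a comparison, members called were 5 for DHEA, 4 for MPy, 0 for Nif, 2 for PBO, 1 for TAA and 6 for Wy, other interferon-stimulated genes 5 for CPA, 7 for Mcarb, 8 for MPy and 2 for TAA, and pathway genes between Mcarb and AA 1. The filter at a mean of 6 gave 1 member and 2 other interferon-stimulated genes for TAA and 2 interferon gamma genes for Mcarb, and the mean of all probe sets gave 2 members for PBO.

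Among contrasted groups, replicate numbers were shared by CPA and set 4, PB and set 6, and Mcarb and AA. They did not meet the bar for pairing there, with correlations of same-numbered deviations between −0.286 and 0.223. With the replicate block, fitted on 6 arrays, other interferon-stimulated genes called were 7 for CPA, and pathway genes between Mcarb and AA 0. The block changed neither the 3 members called for CPA nor the 0 for PB.

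On leaving out 1 array, the median of the members ran from 0.975 to 1.42 for AA, 1.25 to 1.71 for ETH and 1.47 to 1.93 for Mcarb. Members called ran from 0 to 3 for CPA, 1 to 3 for DES, 0 to 2 for DHEA, 0 to 1 for Nif, 1 to 6 for PBO, 0 to 1 between sets 2 and 5 and 4 to 7 for ETH against DMN. Other interferon-stimulated genes called ran from 0 to 4 for CPA, 5 to 10 for DES, 3 to 8 for DHEA, 2 to 7 for DMN, 2 to 2 for MPy, 0 to 2 for Nif, 0 to 1 for PB, 4 to 6 for PBO, 0 to 2 for TAA, 5 to 9 for Wy, 0 to 3 for AA against DMN and 3 to 6 for ETH against DMN. Interferon gamma genes called ran from 1 to 2 for AA, 0 to 4 for Mcarb, 5 to 9 for ETH and 3 to 9 for Mcarb against DMN. Pathway genes called between Mcarb and AA ran from 6 to 19.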
